A study of Mus musculus with 12 samples.

Results

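Germ cells control much of their gene expression after transcription, through proteins that bind mRNA and through helicases that remodel RNA and its proteins. The genes described here are 8 of that class: Ybx2, Ddx25 and Ddx43, the DAZ family genes Dazl and Boll, and Cpeb1, Elavl2 and Dnd1. They were chosen with earlier results of these data known, and were found by symbol in the platform annotation. All 8 were measured, among 22180 genes in all. Each had 1 transcript cluster (the probe group that stands for a gene on the array), and none had a cluster shared with another symbol.

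The series asked how SoxB1 genes, a group of SOX transcription factors that includes Sox3 and Sox2, act in the developing mouse testis. Whole testes of C57BL/6N mice aged 2 weeks were measured with 1 Affymetrix whole-transcript array each, 12 in all. Mutants were 3 Sox3-KO testes, called KO here, and 3 testes of the Sox3-Sox2KI genotype, called KI. The 6 wild-type testes (WT) came from the same litters: WT 1 to WT 3 were littermates of KI mice, and WT 4 to WT 6 of KO mice. Both mutant lines were made with CRISPR/Cas9, and the labels name no further allele or agent in any group. Nothing in the labels says how many founders each line came from. Germ cells of the first wave are in meiosis at this age, so a whole testis holds spermatogonia and spermatocytes beside Sertoli, Leydig, peritubular and other somatic cells. In such bulk tissue, fewer cells of a type and less RNA per cell cannot be told apart.

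Proteins of this class act at successive steps of an mRNA's life. As background, DAZL and BOLL carry an RNA recognition motif and a DAZ repeat and promote translation of germ cell mRNAs, DAZL from the embryonic germ line on and BOLL from spermatocytes on. CPEB1 binds the cytoplasmic polyadenylation element and sets poly(A) tail length, and ELAV proteins such as ELAVL2 bind AU-rich elements. DND1 is a partner of NANOS proteins that protects primordial germ cells. YBX2 (MSY2) is a cold shock domain protein that stores mRNAs in meiotic and later germ cells, DDX25 (GRTH) is a DEAD-box helicase of mRNA export and translation, and DDX43 (HAGE) is a DEAD-box helicase with a KH domain.

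Levels are log2 expression values, on which a difference of 1 is a doubling. Array medians lay between 5.74 and 5.82. The 1105 olfactory receptor genes, mostly silent in testis, had a 95th percentile of 5.33, used as a background limit. Sox3 was 6.57, 6.6 and 6.65 in KO testes, 7.26, 6.75 and 6.95 in KI testes and 7.21 to 7.36 in WT testes. The array labelled KI 1 thus lay within the WT range of Sox3, and the comparisons of KI with all WT and with KO are also given without it. Where the probes lie within Sox3 and Sox2 is not known here, so these levels cannot check the label. Sox2 lay under the background limit in every testis. It was 4.51, 4.31 and 4.16 in KI testes, 4.02 to 4.22 in KO testes and 3.81 to 4.22 in WT testes. All measured markers of Sertoli, Leydig, peritubular and endothelial cells, of spermatogonia and of early spermatocytes lay above the limit in every group, while 5 of 8 spermatid markers (Acrv1, Tnp1, Tnp2, Prm1 and Tssk1) lay under it in every group.

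In KO testes 5 of the 8 genes fell against all 6 WT testes: Ybx2 2.83-fold, Boll 1.77-fold, Ddx25 1.67-fold, Ddx43 1.42-fold and Dazl 1.31-fold. Cpeb1, Elavl2 and Dnd1 did not pass. In KI testes none of the 8 passed. The test was limma over all 22180 genes with Benjamini-Hochberg adjustment at 0.05, and the 5 adjusted p-values lay close together, between 0.0320 and 0.0424. Among all genes tested, 2.34% were called lower in KO testes, 2.52% higher and 4.86% in either direction. The median change of the 8 genes was -0.449, against 0.043 over all genes tested, and 7 of the 8 changes were negative, against 40.2% of all genes. Because the 8 genes were chosen with earlier results of these data known, these shares are a description and not a test. The calls in KO testes depended on which arrays were in the fit. Without KO 2 6 of the 8 and 2323 of the 22180 genes passed. Without KI 1, KI 2 or KI 3 it was 4, 3 and 3 of the 8, and 777, 608 and 463 of all genes. KI arrays enter this comparison only through the shared estimate of the spread. Without KO 1 or KO 3, or without WT 1, WT 2, WT 3 or WT 5, none of the 8 passed. With the 3 WT littermates of KO mice as the only controls none passed either.

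**Figure D1:**
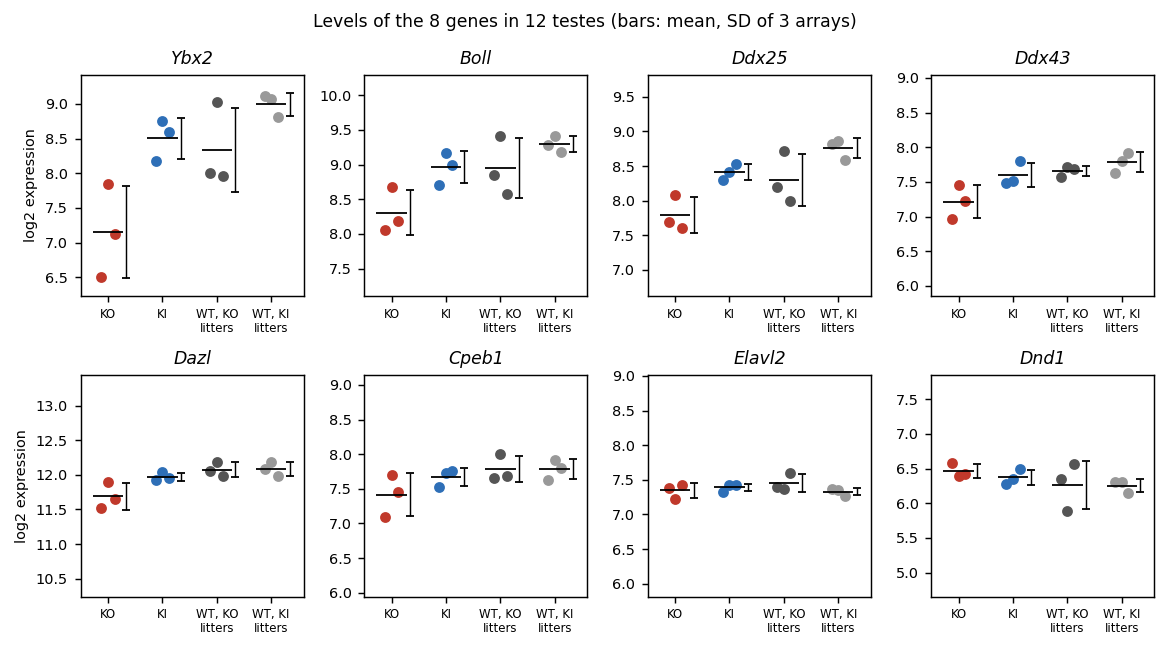
Log2 expression (vertical axis) of the 8 genes in each of the 12 testes, by group (horizontal axis). Points are arrays, horizontal lines are group means and error bars are SD of 3 arrays, and every panel spans the same number of log2 units. The 3 KO points lie lowest for Ybx2, and WT 4 and WT 6, the lower pair among WT littermates of KO mice, lie between 7.96 and 8.0 there.

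Ybx2 showed the largest change of the 8. Its level was 6.51, 7.84 and 7.12 in KO 1, KO 2 and KO 3, against 9.11, 9.07, 8.81, 8.0, 9.03 and 7.96 in WT 1 to WT 6. All 3 KO arrays lay below all 6 WT arrays, KO 2 by 0.12. Means were 7.16 ± 0.67 in KO (SD, n = 3) and 8.66 ± 0.54 in WT (SD, n = 6), a log2 change of -1.50 (SE 0.32, 95% interval -2.20 to -0.81, limma adjusted p = 0.0320). The change is large, and so is the spread among WT testes, which covered 1.15. KI testes had 8.18, 8.75 and 8.59, inside the WT range.

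Ddx25, the export helicase, varied along similar lines. It was 7.70, 8.08 and 7.60 in KO testes, against 8.82, 8.86, 8.59, 8.20, 8.72 and 7.99 in WT 1 to WT 6. KO 2 lay above WT 6, so the groups overlap. The change was -0.74 (SE 0.18, 95% interval -1.14 to -0.34, limma adjusted p = 0.0424), the largest adjusted p of the 5 genes that fell. KI testes had 8.30, 8.42 and 8.53, inside the WT range.

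Ddx43, the helicase with a KH domain, changed less and varied less among controls. KO testes had 6.97, 7.45 and 7.22, against 7.63, 7.80, 7.92, 7.57, 7.71 and 7.69 in WT 1 to WT 6. All 3 KO arrays lay below all WT arrays, with a gap of 0.13. The change was -0.51 (SE 0.11, 95% interval -0.75 to -0.27, limma adjusted p = 0.0328), and the WT spread was 0.12 (SD, n = 6). KI 1 (7.49) and KI 2 (7.52) lay just under the lowest WT array, and KI 3 was at 7.80.

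Dazl and Boll, the DAZ family pair, both fell in KO testes. Dazl was 11.52, 11.90 and 11.65 in KO testes, against 12.08, 12.19, 11.99, 12.05, 12.19 and 11.99 in WT 1 to WT 6. The 3 KO arrays lay below all WT arrays, with a gap of 0.09. Its change of -0.39 (SE 0.09, 95% interval -0.58 to -0.21, limma adjusted p = 0.0328) was the smallest of the 5, set against a WT spread of 0.091 (SD, n = 6).

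Boll was 8.06, 8.67 and 8.18 in KO testes, against 9.29, 9.42, 9.18, 8.85, 9.42 and 8.57 in WT 1 to WT 6. KO 2 lay above WT 6, so the groups overlap. The change was -0.82 (SE 0.20, 95% interval -1.25 to -0.40, limma adjusted p = 0.0393), against a WT spread of 0.34 (SD, n = 6). In KI testes Dazl was 11.93, 12.04 and 11.95 and Boll 8.71, 9.17 and 9.0. KI 1 and KI 3 lay just under the lowest WT array for Dazl, and every KI array of Boll lay inside the WT range.

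All 3 KO arrays lay below all 6 WT arrays for 3 of the 8 genes (Dazl, Ybx2 and Ddx43), against 4.59% of all genes. KO 2 was the highest KO array for each of the 5 genes that fell.

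The promoters of the 5 genes that fell in KO testes are shown. The stretches below come from the RefSeq promoter windows on GRCm38.p6 (250 bases before to 50 after a listed start), on the gene's strand, at the outermost listed start and kept to bases outside every annotated gene. They are chr11:69935649-69935804 (plus strand) for Ybx2, chr1:55363790-55364003 (minus) for Boll, chr9:35558471-35558559 (minus) for Ddx25, chr9:78395527-78395776 (plus) for Ddx43 and chr17:50293621-50293870 (minus) for Dazl. Capitals mark CG dinucleotides.
Ybx2: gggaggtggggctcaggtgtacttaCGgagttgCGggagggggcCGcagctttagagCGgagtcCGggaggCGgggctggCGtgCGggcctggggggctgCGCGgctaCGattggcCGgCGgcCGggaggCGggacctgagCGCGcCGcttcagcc
Boll: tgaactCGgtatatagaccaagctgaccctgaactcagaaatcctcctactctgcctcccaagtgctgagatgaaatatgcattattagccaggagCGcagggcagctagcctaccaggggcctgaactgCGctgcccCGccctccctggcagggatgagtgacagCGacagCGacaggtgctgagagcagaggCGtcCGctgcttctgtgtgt
Ddx25: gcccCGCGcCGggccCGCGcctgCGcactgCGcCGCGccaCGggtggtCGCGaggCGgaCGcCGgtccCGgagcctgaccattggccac
Ddx43: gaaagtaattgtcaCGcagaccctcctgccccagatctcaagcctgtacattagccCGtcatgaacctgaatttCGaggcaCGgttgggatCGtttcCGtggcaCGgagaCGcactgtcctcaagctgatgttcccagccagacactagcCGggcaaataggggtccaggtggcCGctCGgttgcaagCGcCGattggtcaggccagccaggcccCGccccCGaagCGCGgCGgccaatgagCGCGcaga
Dazl: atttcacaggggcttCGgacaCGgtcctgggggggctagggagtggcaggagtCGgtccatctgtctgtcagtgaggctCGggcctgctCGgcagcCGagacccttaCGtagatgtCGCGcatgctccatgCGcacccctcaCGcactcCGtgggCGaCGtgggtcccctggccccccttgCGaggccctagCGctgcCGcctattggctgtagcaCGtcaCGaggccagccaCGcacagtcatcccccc

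These windows are rich in CG for most of the genes. Of 32851 windows in the table the median holds 7 CG and the upper quartile 20. The window of Ddx25 holds 41, the 2 windows of Ybx2 hold 40 and 32, that of Ddx43 holds 30 and that of Dazl 28. Boll has 13 at its outer start and 39 at its inner one. Of the genes that did not pass, Cpeb1 has 33 and the 6 windows of Elavl2 have 10 to 27, while the promoter of Dnd1 was not analysed here. Among motifs searched on both strands of the 14 windows of 7 genes, the STRA8 and MEIOSIN motif CNCCTCAG was in Dazl and in the inner window of Ybx2 (7.9% of all windows hold it). The E-box CACGTG was in Boll, Cpeb1 and Ddx25 (7.2% of all windows), the MYB motif TAACNG in Elavl2 (23.3%) and the E2F motif GGCGGGAA in Boll (2.2%). The SOX core AACAAT (10.7%) and the cAMP response element TGACGTCA (1.8%) were in none. A match or its lack is a description of these letters in these windows.

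Cpeb1, the polyadenylation factor, was 7.09, 7.70 and 7.46 in KO testes, against 7.63, 7.92, 7.80, 7.66, 8.0 and 7.69 in WT 1 to WT 6. KO 1 and KO 3 lay below all WT arrays and KO 2 within their range. The change of -0.37 (SE 0.13, 95% interval -0.64 to -0.09) did not pass over all genes (limma adjusted p = 0.102). It passed among the genes above the median level (limma adjusted p = 0.0462), where 2459 genes of that smaller set passed. Cpeb1 also passed without KO 2 (limma adjusted p = 0.0299, change -0.50), where 2323 of all genes passed. KI testes had 7.52, 7.73 and 7.76.

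Elavl2 and Dnd1 did not pass in any comparison. Elavl2 was 7.38, 7.23 and 7.43 in KO testes, 7.33, 7.42 and 7.42 in KI testes and between 7.27 and 7.60 in WT testes, with a median of 7.36. Its KO change was -0.04 (95% interval -0.21 to 0.13, limma adjusted p = 0.796), so the interval leaves out a change the size of that of Ddx43 or Dazl. The sign of this change is not fixed, since it was 0.02 without KO 2.

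Dnd1 was 6.58, 6.39 and 6.42 in KO testes, 6.28, 6.35 and 6.49 in KI testes and between 5.89 and 6.57 in WT testes, with a median of 6.31. The KO change was 0.20 (95% interval -0.06 to 0.46, limma adjusted p = 0.334), the positive one among the 8. WT 5 held the lowest level of all 12 arrays and KO 1 the highest. The interval reaches up to a rise of 0.46, more than the size of the falls of Dazl and Cpeb1. It leaves out a fall of the size seen for any of the other genes except Elavl2.

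**Figure D2:**
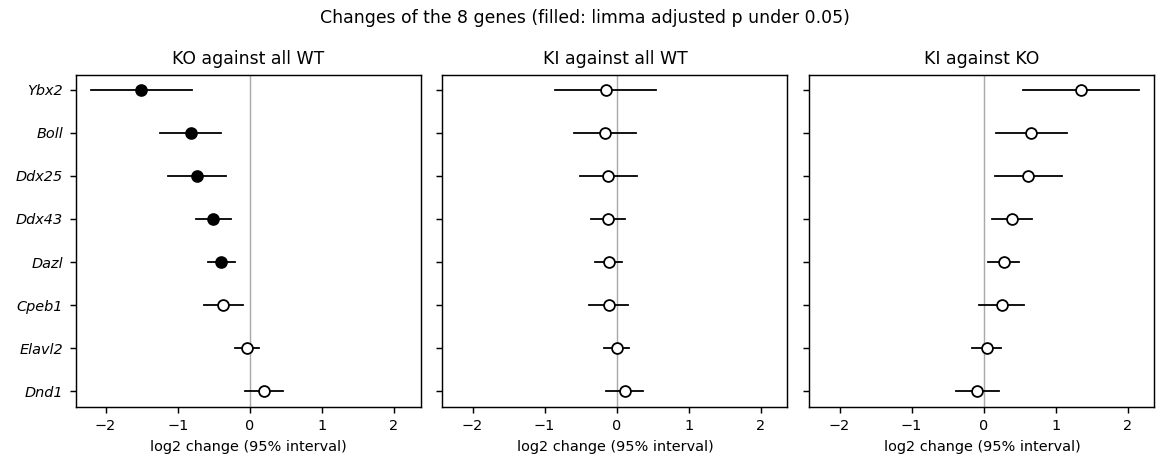
Log2 change (horizontal axis) with its 95% interval for the 8 genes (rows) in KO against all WT, KI against all WT and KI against KO testes. Filled points passed limma's adjusted p at 0.05: 5 in the KO panel, none in the others.

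Differences between genes inside each array, where the scaling of an array cancels, were computed for 10 pairs of the 8 genes and were not tested. The pairs were neighbours in the order of KO change, with Ybx2 and Dazl, Ybx2 and Ddx25, and Ddx25 and Dazl added. The gene with the more negative KO change was put first. The KO mean thus lies below the WT mean in every pair by that choice. KO and WT values did not overlap for 2 pairs, both by a narrow gap. How often pairs of other genes do so was not computed. Ybx2 minus Ddx25 averaged -0.63 ± 0.49 in KO testes (SD, n = 3) and 0.13 ± 0.20 in WT testes (SD, n = 6). The KO values (-1.19 to -0.24) lay below the WT values (-0.21 to 0.31). Boll minus Ddx25 averaged 0.51 ± 0.13 in KO and 0.59 ± 0.08 in WT testes, with overlapping values. Dazl minus Cpeb1 averaged 4.27 ± 0.13 in KO and 4.30 ± 0.11 in WT testes. Ordered by change, Ybx2 and Boll overlapped in this measure (-1.55 to -0.82 in KO, -0.85 to -0.18 in WT), as did Ddx25 and Ddx43, Ddx43 and Dazl, and Cpeb1 and Elavl2. Ybx2 minus Dazl met at its edge (-5.01 to -4.05 in KO, -4.05 to -2.98 in WT), and Ddx25 minus Dazl overlapped (-4.05 to -3.81 in KO, -4.0 to -3.26 in WT). Elavl2 minus Dnd1 was the other pair that did not overlap (0.80 to 1.01 in KO, 1.03 to 1.47 in WT).

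KI testes were set against WT and against KO testes to ask how the Sox2 knock-in compares with each. Against all 6 WT testes none of the 8 genes passed (limma adjusted p from 0.986 to 0.999, with none at an unadjusted p under 0.05). None of the 22180 genes passed either (0%), while 1163 had an unadjusted p under 0.05. The changes ran from -0.16 for Boll (95% interval -0.59 to 0.27) to 0.11 for Dnd1 (95% interval -0.15 to 0.37). For Ybx2 the change was -0.15 (95% interval -0.85 to 0.54), so these arrays cannot place it closely. For Dazl it was -0.11 (95% interval -0.30 to 0.08) and for Ddx43 -0.12 (95% interval -0.36 to 0.12). Without the array labelled KI 1 none passed, the change of Ybx2 was 0.01 and that of Boll -0.03.

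Against KO testes, KI testes had higher levels of Ybx2 by 1.35 (95% interval 0.54 to 2.15), Boll by 0.66 (0.17 to 1.15), Ddx25 by 0.62 (0.16 to 1.08), Ddx43 by 0.39 (0.11 to 0.67) and Dazl by 0.28 (0.07 to 0.50). None passed over all genes (limma adjusted p between 0.145 and 0.191 for these 5), and none of the 22180 genes did (0%), with 5 of the 8 and 3993 genes at an unadjusted p under 0.05. For the same 5 genes all 3 KI arrays lay above all 3 KO arrays, against 9.56% of all genes. Without KO 2 Ybx2 (difference 1.69, limma adjusted p = 0.0402) and Dazl (0.39, adjusted p = 0.0478) were among 721 of 22180 genes that passed. Without the array labelled KI 1 none passed. Cpeb1 (0.25), Elavl2 (0.04) and Dnd1 (-0.09) had intervals that include 0.

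Within litters the 5 genes kept their direction in KO testes, and none passed. Against the WT littermates of KO mice (WT 4, WT 5 and WT 6) KO changes were -1.17 for Ybx2 (SE 0.33), -0.65 for Boll, -0.51 for Ddx25, -0.44 for Ddx43, -0.39 for Dazl and -0.37 for Cpeb1. None of the 8 passed (limma adjusted p from 0.162 to 0.589), and 0.00902% of all genes did. An unadjusted p under 0.05 was reached by 6 of the 8 and by 3480 of the 22180 genes. All 3 KO arrays lay below all 3 littermates for Dazl, Ybx2 and Ddx43, against 7.13% of genes. Against their own WT littermates (WT 1, WT 2 and WT 3) KI changes were -0.49 for Ybx2, -0.34 for Boll, -0.34 for Ddx25, -0.18 for Ddx43 and -0.12 for Dazl. None passed (adjusted p from 0.930 to 0.943), as was the case for all genes (0%, with 1000 at an unadjusted p under 0.05). For Boll, Ybx2 and Ddx25 all 3 KI arrays lay below all 3 of these littermates, against 6.07% of genes. The KI effect minus the KO effect, each within its own litters, was 0.68 for Ybx2 (95% interval -0.35 to 1.71), 0.31 for Boll and 0.27 for Dazl. No member passed this test of the difference (limma adjusted p from 0.848 to 0.963), nor did any gene (0%, with 1293 at an unadjusted p under 0.05).

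The 2 sets of WT littermates were also set against each other. WT testes of KI litters were above those of KO litters by 0.67 for Ybx2, 0.45 for Ddx25 and 0.35 for Boll. No member passed (limma adjusted p from 0.891 to 0.9995) and no gene did (0%, with 1174 at an unadjusted p under 0.05, Ddx25 among them). WT 6 and WT 4 were the lowest WT arrays for Ybx2, Boll and Ddx25, while WT 5, of the same litter origin, lay with the WT testes of KI litters.

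Markers of spermatocytes also fell in KO testes. Over all genes 2.34% were called lower in KO testes and 2.52% higher, with a median change of 0.043. Of 13 measured pachytene markers 7 fell in KO testes and none rose, with a median change of -1.12. Their mean was 6.47, 7.31 and 6.47 in KO 1, KO 2 and KO 3, 7.45, 7.95 and 7.71 in KI testes and 8.15, 8.29, 7.84, 7.40, 8.24 and 7.14 in WT 1 to WT 6. The log2 of their summed linear level ran from 10.64 to 11.67 in KO, from 11.81 to 12.40 in KI and from 11.47 to 12.86 in WT testes, and Spag6 and Pgk2 lay under the background limit in every group. KO 2 was highest among KO arrays and WT 4 and WT 6 lowest among WT arrays, as for Ybx2, Boll and Ddx25. The lowest WT arrays differed for Dazl (WT 6 and WT 3) and Ddx43 (WT 4 and WT 1). Of 13 measured early spermatocyte markers 11 fell and none rose (summed level 12.33 to 12.94 in KO, 12.94 to 13.22 in KI and 13.10 to 13.48 in WT testes, none under the limit). Leydig cell markers had a median KO change of 0.62 with 1 of 6 risen (summed level 11.80 to 12.11 in KO, 10.74 to 11.54 in KI and 10.76 to 11.71 in WT testes), and Sertoli cell markers 0.33 with 2 of 11 risen (summed level 13.69 to 13.80 in KO, 13.57 to 13.65 in KI and 13.50 to 13.64 in WT testes). Of the undifferentiated spermatogonia markers 3 of 10 rose (summed level 11.16 to 11.27 in KO, 11.03 to 11.19 in KI and 10.88 to 11.09 in WT testes). Of 7 differentiating spermatogonia markers 1 fell, and 6 of the 7 changes were negative. The summed level of these 7 was 11.13 to 11.32 in KO, 11.40 to 11.50 in KI and 11.43 to 11.48 in WT testes. No marker of peritubular cells, macrophages or endothelium passed, and no marker of any list passed in KI testes. The part of cell makeup in the changes of the 8 genes was not tested.

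**Figure D3:**
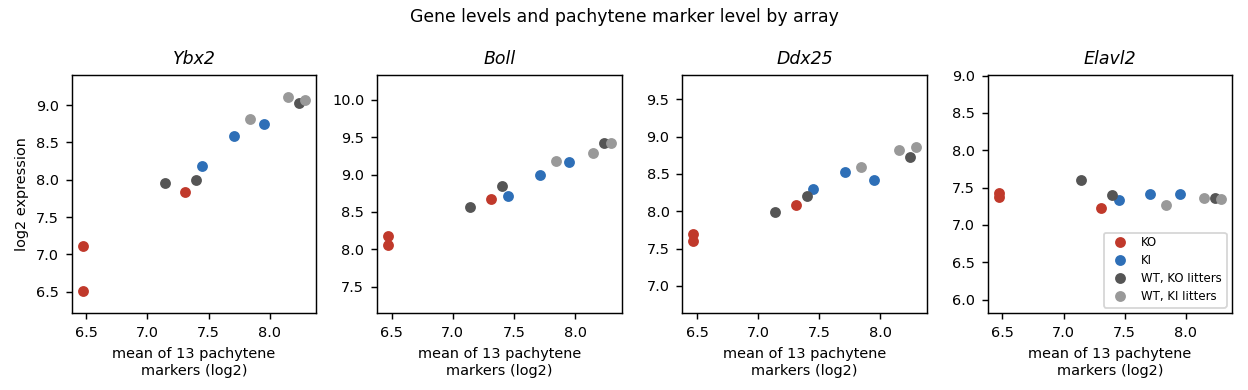
Log2 level of Ybx2, Boll, Ddx25 and Elavl2 (vertical axes) against the mean log2 level of 13 pachytene markers (horizontal axis) in each of 12 arrays, coloured by group. Dazl and Ddx43, which also fell, are not drawn. KO 1 and KO 3 sit at a marker mean of 6.47 and lowest for the 3 genes at left, KO 2 (7.31) sits beside WT 4 and WT 6 there, and Elavl2 lies between 7.23 and 7.60.

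Some relatives of the 8 genes also changed. Of 15 measured relatives 3 fell in KO testes and none rose, with a median change of -0.095, against 0.043 over all genes. Of all genes tested 2.34% fell and 2.52% rose. Elavl3, an ELAV protein best known from neurons, was 6.98, 7.56 and 7.07 in KO testes and between 7.81 and 8.16 in WT testes, a change of -0.77 (SE 0.13, limma adjusted p = 0.0236) in a family where Elavl2 did not pass. Rbm46, a relative of Dnd1 that acts on mRNAs of meiotic entry, changed by -0.51 (adjusted p = 0.0373). Cpeb4, of the CPEB family, changed by -0.33 (adjusted p = 0.0353). The members of highest level among the rest did not pass: the helicase Ddx5 changed by 0.00 (adjusted p = 0.982) and Ybx3, a Y-box protein related to Ybx2, by -0.07 (adjusted p = 0.690).

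Among 37 other measured RNA regulators of germ cells 6 fell, 1 rose and 30 did not pass in KO testes, with a median change of -0.137. The shares over all genes were 2.34% fallen and 2.52% risen, with a median change of 0.043. Meioc (-0.84, SE 0.16, limma adjusted p = 0.0310) and Ythdc2 (-0.64, SE 0.13, adjusted p = 0.0311), partners that move germ cells from mitosis into meiosis, both fell. Adad1, a testis RNA-binding protein with an adenosine deaminase domain, changed by -0.90 (adjusted p = 0.0311). The vasa helicase Ddx4 (-0.61, adjusted p = 0.0424), the germ cell protein Rbm44 (-0.55, adjusted p = 0.0424) and the poly(A)-binding protein Pabpc1 (-0.38, adjusted p = 0.0353) fell as well. Msi2, a Musashi protein, rose by 0.34 (SE 0.08, adjusted p = 0.0395), with 9.14, 9.01 and 9.39 in KO testes, against 8.75 to 8.93 in WT testes. Ddx6 (0.03, adjusted p = 0.869) and Ythdc1 (-0.09, adjusted p = 0.377), of highest level among the others, did not pass.

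Of 6 measured mRNAs known from mouse germ cells to be bound by DAZL, CPEB1, YBX2 or DDX25, Sycp1, the transverse filament of the synaptonemal complex, fell (-0.75, SE 0.16, limma adjusted p = 0.0321) and 5 did not pass. Their median change was 0.016, against 0.043 over all genes, of which 2.34% fell. Sycp1 is also among the early spermatocyte markers that fell, so its fall is counted in both lists. Tex19.1 changed by 0.08 (adjusted p = 0.585) and Tnp2 by 0.00 (adjusted p = 0.987), and Tnp1, Tnp2, Prm1 and Pgk2 lay under the background limit in every group. In KI testes no gene of these lists passed, with median changes of -0.01 for the relatives, -0.037 for the other regulators and -0.055 for the bound mRNAs. The calls of these lists in KO testes also depended on the arrays in the fit: without KO 1, KO 3, WT 2, WT 3 or WT 5 none of the 11 list genes named as past the threshold was called.

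**Figure D4:**
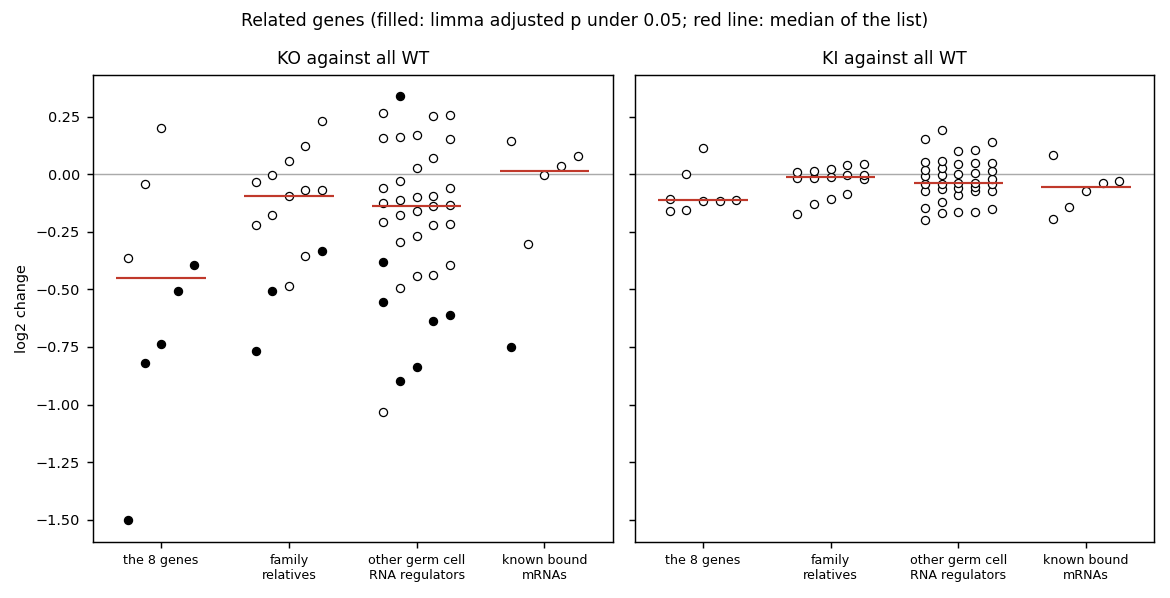
Log2 change (vertical axis) of each measured gene in the lists (horizontal axis) in KO against all WT (left) and KI against all WT (right). Points are genes, filled where limma's adjusted p was under 0.05, and red lines are list medians, from -0.449 for the 8 genes to 0.016 for the bound mRNAs at left.

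The genes most like the 5 that fell were found by the root mean square difference between levels over the 12 arrays, each gene centred on its own mean. Nearest to Ybx2 (SD over arrays 0.78) were Tcam1 (0.144), Ube2u (0.152) and Tktl2 (0.162). Boll was nearest to Ift80 (0.077), Tdrd9 (0.077) and Nol8 (0.078), and Ddx25 to Hyls1 (0.073), Nol8 (0.091) and Nek2 (0.096). For Ddx43 they were Gm7972 (0.086), 1700048O20Rik (0.093) and Derl3 (0.096), and for Dazl Ect2 (0.043), Dnajc21 (0.045) and Lnpk (0.049). A small difference for a gene that varies little, such as Dazl (SD over arrays 0.19), is easier to reach.

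**Figure D5:**
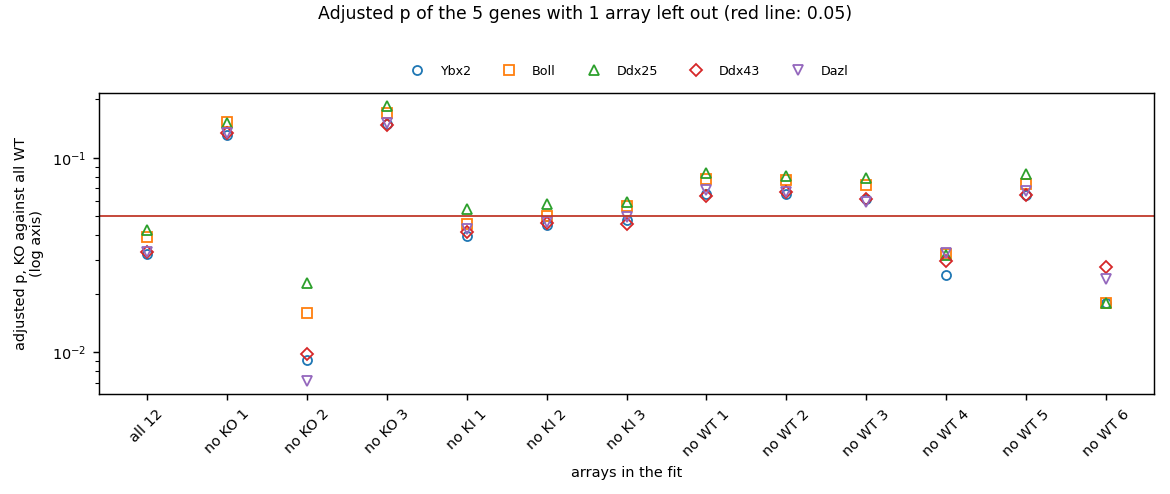
Adjusted p of KO against all WT (vertical axis, log scale) for the 5 genes that fell, with all 12 arrays and with each array left out in turn (horizontal axis). The red line is 0.05: all 5 genes lie above it without KO 1, KO 3, WT 1, WT 2, WT 3 or WT 5, and all lie below it without KO 2, WT 4 or WT 6. Without KI 1, KI 2 or KI 3, 4, 3 and 3 of the 5 lie below it.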

How the data were processed

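Whole testes of KO, KI and WT mice were measured on arrays, and groups were taken from the labels. The deposited values were log2 expression per transcript cluster (41345 clusters). The submitters' processing notes list Partek 6.6, RMA and Affymetrix Expression Console without saying what each did. The sources used here do not give the background correction, filters or annotation release. Since RMA equalises the distributions of arrays, a change is relative to the rest of its array. Clusters were named from the platform annotation (23521 with 1 symbol, 1814 with several, 16010 with none), and a gene with over 1 cluster was represented by that of highest mean over the arrays. Arrays give no counts, so precision was judged from the spread: the median 95% interval reached 0.22 to either side of a change against all WT and 0.26 between groups of 3.

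Two-sided tests used lmFit and eBayes of limma 3.58.1 (R 4.3.3) on the deposited log2 values, with 1 fit of 3 genotype groups over 12 arrays, or of the 4 label groups for the litter comparisons, and Benjamini-Hochberg adjustment over 22180 genes at 0.05. The labels call replicates biological. No 2 arrays were identical. The fit was also run on simulated data with independent noise for each gene and array. Such data lack variation shared by genes of an array, so they do not bear on how calls depend on single arrays. Replicate numbers 1 to 3 are shared by KI with KO and with its WT littermates. Correlations of same-numbered arrays' deviations from group means were 0.139, 0.114 and -0.035 for KI with KO, and 0.066, 0.039 and -0.023 for KI with its littermates, so the numbers were not taken as pairs. Comparisons that share WT or KO arrays are not independent.

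The members, the lists and the named-gene rule were chosen with earlier results of these data known. The rule took all 8 genes, from each list up to 10 genes past the threshold and the 2 of highest level among the others, and the 3 nearest profiles of each member that fell. Other settings tried were a new quantile normalization, median centring, genes above the median level, means over clusters, array weights, an intensity trend with robust variance, littermate controls, replicate numbers as a block, and each array left out. Promoter sequences are from RefSeq on GRCm38.p6, matched by gene number for 7 of the 8 genes. No source used here gives the build of the array files. Figures were drawn with matplotlib 3.10.9 in Python 3.11.15.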

Additional observations from a re-analysis of the deposited data

How the results depend on the processing

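The 5 falls in KO testes kept their direction under all 7 other settings and all 12 fits with 1 array left out, and the count of members past the threshold stayed at 5 or 6 except with littermate controls (0) and with 1 array left out (0 to 6). With 1 array left out Ybx2 changed by -1.85 to -1.18, Boll by -1.0 to -0.70, Ddx25 by -0.88 to -0.64, Ddx43 by -0.62 to -0.39 and Dazl by -0.50 to -0.31. The count over all 22180 genes was 1078 in KO against all WT. It became 2048 with an intensity trend and robust variance, 2 with littermate controls, and 2 to 2323 with 1 array left out. Among genes above the median level it was 2459, out of that smaller set. In KO against all WT the fits with 1 array left out differed. The count was 2 without KO 3, 3 without KO 1, and 18 to 36 without WT 1, WT 2, WT 3 or WT 5. In KI against KO the 0 calls became 57 among genes above the median level, 5 with the trend, and 0 to 721 with 1 array left out, where members past the threshold were 0 to 2. Between WT litters the 0 calls became 1 with the trend and 0 to 50 with 1 array left out. KI against all WT and the difference of effects had 0 calls under every setting run. With the replicate number as a block, KI against KO and KI against its littermates had 0 calls, as without it, and KO and its littermates share no number.

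Among the 8 genes, signs turned only for changes that did not pass. Under the new quantile normalization Elavl2 in KI against all WT was -0.013 and Cpeb1 between WT litters 0.00282, and it was 0.026 with array weights. With 1 array left out Elavl2 ran from -0.083 to 0.018 in KO against all WT, from -0.024 to 0.042 in KI against all WT and from -0.017 to 0.083 in KI against KO. In the same fits Ybx2 in KI against all WT ran from -0.29 to 0.011. Between WT litters Dazl ran from -0.038 to 0.0697, Cpeb1 from -0.072 to 0.11 and Dnd1 from -0.21 to 0.13. For the difference of effects Dnd1 ran from -0.22 to 0.12 and Ddx25 from -0.039 to 0.33. The cause of these shifts was not tested.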

Other observations

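Ddx25 lies 89 bases from Pus3, a tRNA pseudouridine synthase gene, on GRCm38.p6, and the stretch shown for Ddx25 above is the sequence between them. The gene after Pus3 is Hyls1, of the centriole. These neighbours were looked at after their values were seen, because Hyls1 had the profile nearest to that of Ddx25 among all genes. Hyls1 was 7.71, 8.09 and 7.50 in KO testes, against 8.73, 8.80, 8.51, 8.12, 8.76 and 8.01 in WT 1 to WT 6, a change of -0.72 (SE 0.19) that did not pass (limma adjusted p = 0.0504). As for Ddx25, WT 4 and WT 6 were the lowest WT arrays. Pus3, which lies between them, was 7.32, 7.13 and 7.15 in KO testes and between 7.02 and 7.17 in WT testes, a change of 0.12 (SE 0.07, adjusted p = 0.316).

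Among the other RNA regulators the most negative KO change was that of D1Pas1, a testis retrogene of the DEAD-box helicase gene Ddx3x, at -1.03, which did not pass (limma adjusted p = 0.0548). Ddx3x itself changed by 0.26 (adjusted p = 0.0887). This pair was also picked after its values were seen.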
